A study of Mus musculus with 2 samples.

Results

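The elastic fibre assembly genes followed here were 10 genes taken by symbol from the 32285 genes listed in both count matrices: Eln, Fbn1, Fbn2, Fbln5, Lox, Loxl1, Mfap2, Mfap4, Emilin1 and Efemp2. All 10 were found. Their UMIs (unique molecular identifiers, each counted as 1 captured RNA molecule) were summed over the cells of each cell class in each library. The lungs came from 2 mice at postnatal day 14, both carrying Gli1creERT (a tamoxifen-inducible Cre under the Gli1 promoter, so that recombination is limited to cells that use that promoter) on 1 allele and loxP-flanked Hhip on both. The control mouse received oil and the Gli1HHIPCKO mouse received tamoxifen after birth, which deletes Hhip, a secreted and membrane-bound inhibitor of hedgehog signalling. Sorted stromal cells, depleted of CD31, CD45 and CD326, were mixed with sorted epithelial cells and run as 1 droplet library a mouse.

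Elastic fibres let the lung recoil and form at the tips of the growing alveolar septa. Tropoelastin, the Eln product, coacervates on a scaffold of fibrillin microfibrils (Fbn1, Fbn2) with their associated glycoproteins (Mfap2, Mfap4, Emilin1). Fibulin-5 (Fbln5) and fibulin-4 (Efemp2) bring tropoelastin together with the cross-linking enzymes, and the copper-dependent lysyl oxidases (Lox, Loxl1) join the monomers. Loss of Fbln5, Efemp2, Lox or Loxl1 in mice is known to leave enlarged airspaces. Myofibroblasts of the septum are the textbook source of elastin during alveologenesis, and vascular smooth muscle, mesothelium and fibroblasts also make it.

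The control library held 10999 cells and 43291709 UMIs, with a median of 3531 UMIs a cell. The Gli1HHIPCKO library held 12350 cells and 52338969 UMIs, with a median of 3720. After the study's filter on genes and mitochondrial UMIs, 10917 and 12115 cells were kept, of which 11.8% and 13.4% could be given no class. The libraries shared 193 cell barcodes. Xist had a UMI in 0.110% of control cells and in 56.7% of Gli1HHIPCKO cells, so the mice differed in sex, and with 1 mouse a condition the deletion, sex and other differences between the mice cannot be told apart. No test between conditions was therefore possible. The intervals given are 95% intervals for counting error only (exact Poisson for levels, exact binomial for ratios and shares) and say nothing of variation between mice. Hhip itself measured 2002 CPM in DMF-like cells of the control against 353 CPM in those of Gli1HHIPCKO (log2 ratio -2.50, interval -2.57 to -2.43), and 2370 against 638 CPM in peribronchial-like cells, and was lower in each of the other classes compared.

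Levels are given as CPM, the UMIs of a gene per 1000000 UMIs of the class in that library, and were not divided by transcript length because each molecule is counted from 1 end. Clusters were named from marker lists as ALMF-like (alveolar myofibroblast), DMF-like (ductal myofibroblast), peribronchial-like, adventitial-like, alveolar-like (alveolar fibroblast) and so on. The 10 genes and the other elastic fibre genes were held out of the clustering. The clusters of ALMF-like and DMF-like cells came mostly from 1 library each: cluster 4 held 976 control and 218 Gli1HHIPCKO cells and cluster 16 held 454 and 84, whereas DMF-like cells of the control lay in cluster 3 (1255 and 33) and those of Gli1HHIPCKO in clusters 5 (16 and 1146) and 15 (13 and 532). Clusters 15 and 16 were those led by immediate early genes, and an alternative left them out. Cluster 7, with 85 and 811 cells, carried ALMF and DMF markers alike. The main comparison therefore takes ALMF-like, DMF-like and cluster 7 cells together as the myofibroblasts, 2799 control and 2824 Gli1HHIPCKO cells. A cluster of smooth muscle, led by Actc1, Cnn1 and Actg2, stayed unnamed because it carried peribronchial and vascular markers alike; it held 116 and 120 cells. The name of the vascular smooth muscle-like cells was the least secure: 3 of the 10 vascular smooth muscle markers had a UMI in at least 10% of the cells, and the 10 summed to 988 CPM in control and 1026 CPM in Gli1HHIPCKO, below their sums in the unnamed smooth muscle cluster (1357 and 1565 CPM) and, in the control, in pericyte-like cells (1358 CPM). Within the vascular smooth muscle-like cells, pericyte markers (2329 and 3244 CPM) and DMF markers (2043 and 1989 CPM) summed to more than the vascular markers.

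RefSeq promoter windows on GRCm38.p6 were at hand for 5 of the 10 genes (9 windows, since some genes have several starts). Hedgehog signalling acts through the GLI transcription factors, which bind GACCACCCA. The full motif, on either strand, was in none of the 9 windows over the 250 bases before the start, and in 0.225% of all 32851 windows. Its inner part, CCACCCA, which overlaps it and was also sought on both strands, was in 1 window each of Fbln5 and Mfap2 and in 8.11% of all windows. Both matches are shown. Fbln5 was the gene of the 5 that differed most between the libraries in myofibroblasts and Mfap2 the one that differed least. Capitals mark the inner part, which lies on the opposite strand and so reads as its reverse complement. The Fbln5 window is chr12:101818485-101818734 on the minus strand, before the second of 2 starts. The match begins 190 bases before that start and lies in no GENCODE exon, within the first intron. The Mfap2 window, chr4:141010431-141010680 on the plus strand, shares 89 bases with an annotated UTR, so only the 27 bases around its match are given (chr4:141010462-141010488, 209 bases before the start, partly in that UTR). A match of these letters describes the sequence and is no evidence of binding.
Fbln5: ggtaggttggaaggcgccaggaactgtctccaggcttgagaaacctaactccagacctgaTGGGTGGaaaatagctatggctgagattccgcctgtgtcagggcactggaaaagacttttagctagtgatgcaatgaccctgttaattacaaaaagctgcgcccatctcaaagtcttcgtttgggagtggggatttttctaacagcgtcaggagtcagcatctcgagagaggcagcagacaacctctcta
Mfap2: ctctgggctcTGGGTGGagaggtatct

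Eln (chr5:134702593-134747323, minus strand, GRCm38) gave the bulk of the UMIs of the 10 genes: 340643 of 471989 in the control library and 420983 of 688941 in the Gli1HHIPCKO library. In the control, the highest Eln levels were in vascular smooth muscle-like cells at 25772 CPM, followed by mesothelial-like cells at 23091 CPM, DMF-like cells at 21761 CPM, alveolar-like cells at 18750 CPM and ALMF-like cells at 16825 CPM, none of whose intervals overlapped with the next. Adventitial-like cells were at 13333 CPM, the unnamed smooth muscle cluster at 9593 CPM, peribronchial-like cells at 6799 CPM and pericyte-like cells at 2454 CPM. The order differed in the Gli1HHIPCKO library, where DMF-like cells came first at 26485 CPM and vascular smooth muscle-like cells second at 19007 CPM, then ALMF-like cells at 13706 CPM, with mesothelial-like (12220 CPM) and alveolar-like cells (12005 CPM) overlapping in their intervals. AT2-like cells, alveolar type 2 epithelial cells that are not a known source of elastin, were at 99.6 and 104 CPM, although 29.1% and 33.6% of them had an Eln UMI at a median depth of 4638 and 5621 UMIs. With each cell thinned to 2000 UMIs, and cells below that depth left out (436 control and 235 Gli1HHIPCKO AT2-like cells, 509 and 526 myofibroblasts), those shares were 15.8% and 15.9%, against 99.9% and 99.96% of myofibroblasts.

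Blood cells in these libraries carried more Eln than AT2-like cells. Red cell-like cells were at 2539 CPM in the control and 4094 CPM in the Gli1HHIPCKO library, and lymphoid-like cells at 3373 and 3827 CPM. This Eln was uneven: the median red cell-like cell held 1 Eln UMI in the control, but the cell at the 90th percentile held 45.5, and the values in Gli1HHIPCKO were 2 and 72.6. The levels in the lowest stromal class, pericyte-like cells, lay in the same range as those of blood cells. Within pericyte-like cells, Eln was at 588 and 554 CPM in cluster 6, and at 10618 and 14035 CPM in cluster 30, a small deep cluster of 36 control and 82 Gli1HHIPCKO cells with a median of 4671 UMIs.

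**Figure D1:**
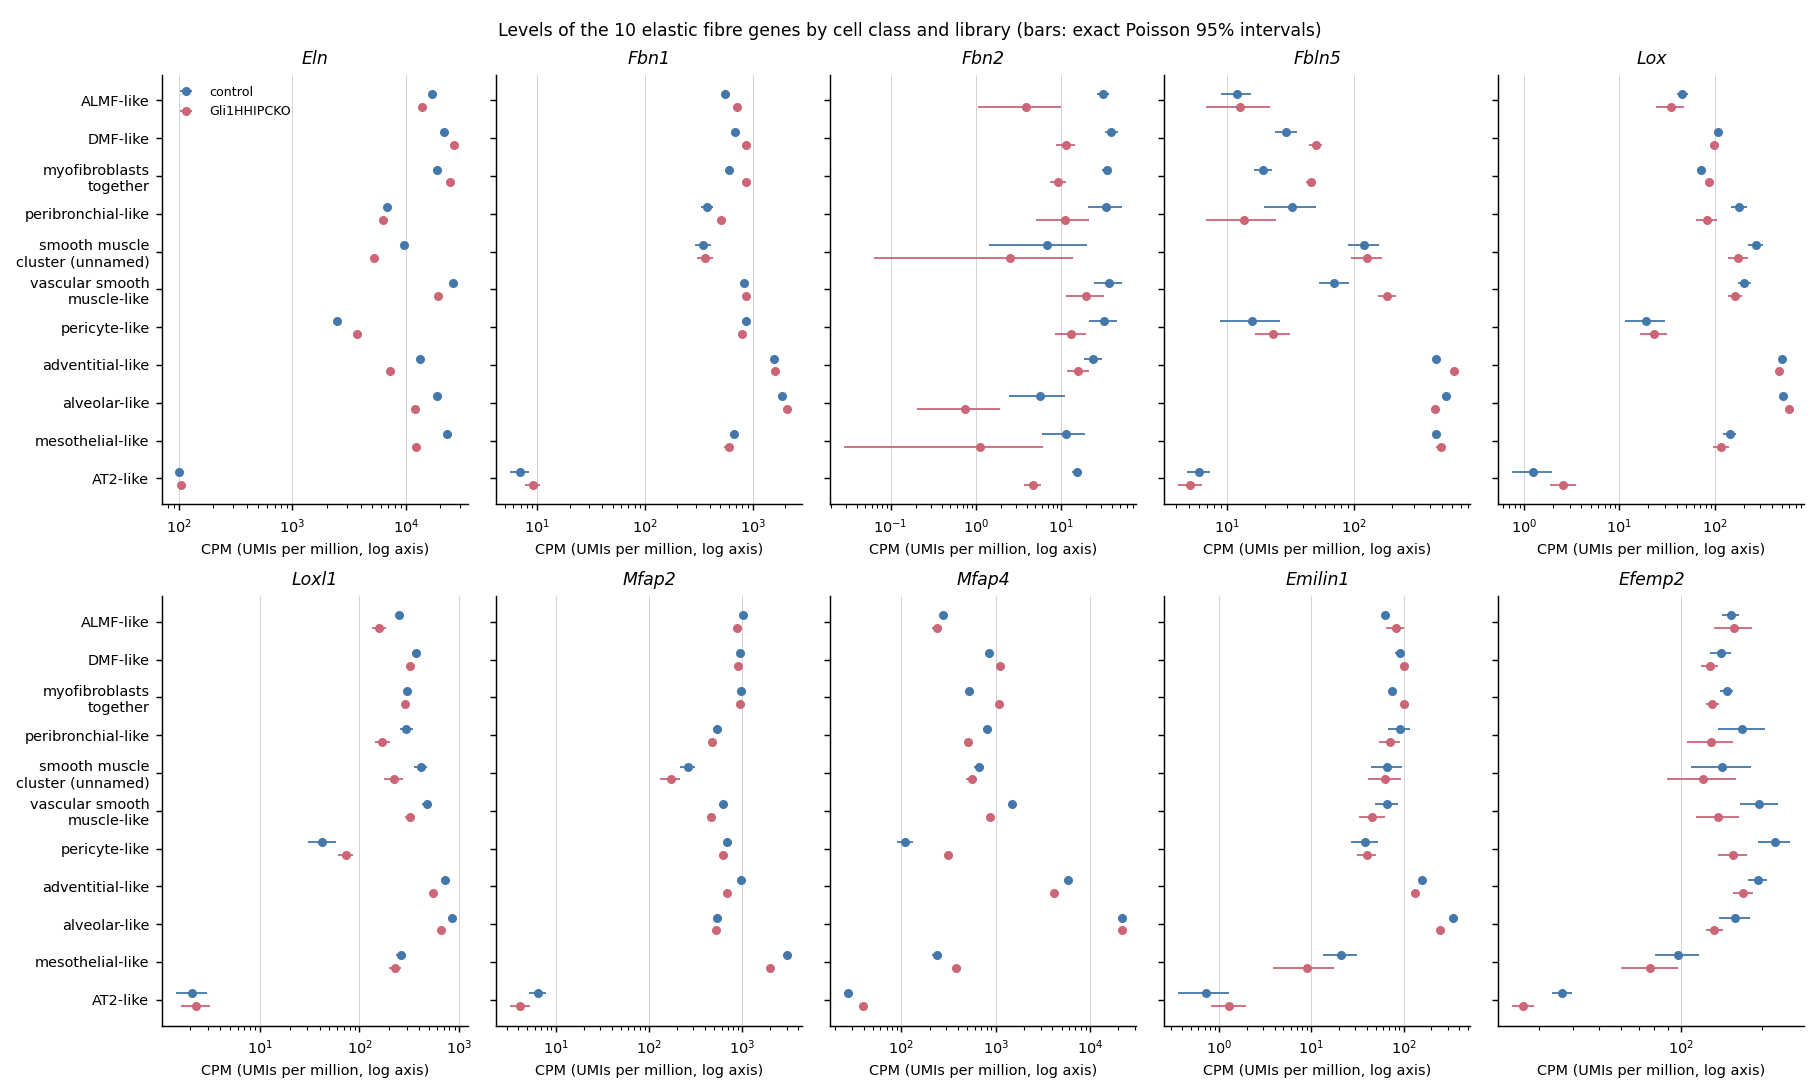
CPM (log axis) of each of the 10 genes in 10 cell classes, and in the myofibroblasts together, for control (blue) and Gli1HHIPCKO (red); points are class totals of 1 library and bars exact Poisson 95% intervals. Eln lay between 2454 and 26485 CPM in the stromal classes and near 100 CPM in AT2-like cells, while Mfap4 was at 21782 and 21857 CPM in alveolar-like cells.

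In myofibroblasts, 3 of the 10 genes differed at least 1.5-fold between the libraries. Fbln5 and Mfap4 were higher in Gli1HHIPCKO and Fbn2 was lower, while Eln was 1.30-fold higher. All 10 passed the filter (a UMI in at least 5% of the cells and 50 UMIs over both libraries). Among all 7689 genes that passed it, 4.75% were at least 1.5-fold higher and 3.97% at least 1.5-fold lower, against which 2 of the 10 genes were higher and 1 lower. The median log2 ratio was 0.32 over the 10 genes and -0.02 over all genes tested.

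Eln measured 18884 CPM in control and 24554 CPM in Gli1HHIPCKO myofibroblasts (log2 ratio 0.38, interval 0.37 to 0.39). In these cells the 9 AT2 markers summed to 2428 and 1547 CPM (1 of 9 higher), and their part was not tested. The median myofibroblast held 42 Eln UMIs in the control and 59 in Gli1HHIPCKO. Eln was lower in Gli1HHIPCKO in both ALMF-like clusters (15682 and 13244 CPM in cluster 4, 18766 and 14669 CPM in cluster 16). It was higher in clusters 7 (18763 and 24582 CPM), 3 (21718 and 26464 CPM) and 5 (24075 and 28792 CPM), where 1 library had between 16 and 85 cells, and close in cluster 15 (22485 and 22957 CPM). Over ALMF-like cells alone the log2 ratio was -0.30 (-0.32 to -0.27) and over DMF-like cells alone 0.28 (0.27 to 0.30). Both were below that of the pool, whose make-up is given with Fbln5. DMF-like cells held more Eln (21761 and 26485 CPM) than ALMF-like cells (16825 and 13706 CPM) in each library. The ratio for ALMF-like cells was above 0 in 4 of 13 alternatives, at most 0.35 with high-scoring doublets left out, whereas that for all myofibroblasts kept between 0.33 and 0.44 under every alternative. Each alternative also pooled the subtypes, so the part of the make-up in the pooled Eln value was not tested.

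Fbln5 (chr12:101746565-101819055, minus strand) was scarce in myofibroblasts, with 161 UMIs or 19.4 CPM in the control against 408 UMIs or 46.2 CPM in Gli1HHIPCKO (log2 ratio 1.25, interval 0.99 to 1.53). The share of myofibroblasts with a Fbln5 UMI was 5.25% and 11.7%, and 3.62% and 8.01% at 2000 UMIs a cell. In clusters, Fbln5 was between 11.0 and 13.6 CPM in the ALMF-like cells of both libraries, and between 28.6 and 56.9 CPM in clusters 3, 5, 7 and 15. The intervals of the 2 libraries overlapped within each of the 6 clusters, most of which held few Fbln5 UMIs in 1 library. Fbln5 was also found in red cell-like cells, which are not known to make it, at 29.5 and 40.7 CPM, and in AT2-like cells at 6.07 and 5.17 CPM. Adventitial-like cells (446 and 617 CPM) and alveolar-like cells (536 and 441 CPM) held far more Fbln5 than myofibroblasts, and markers of both were higher in Gli1HHIPCKO myofibroblasts: the 12 adventitial markers summed to 237 and 399.8 CPM (9 of 12 higher) and the 12 alveolar fibroblast markers to 193 and 412 CPM (11 of 12 higher), none at 0 in either library. The make-up of the pool differed as well, with 1430 ALMF-like and 1284 DMF-like cells in the control against 302 and 1711 in Gli1HHIPCKO, and ALMF and DMF markers moved with it (4838 and 3346 CPM, 4706 and 8937 CPM). These cell counts depended on the clustering. With immediate early genes held out there were 1522 control and 1206 Gli1HHIPCKO ALMF-like cells. With high-scoring doublets left out there were 1425 and 1158, but at resolution 0.5 there were 1294 and 241. Fbln5 was at 11.96 and 12.8 CPM in ALMF-like and at 29.3 and 50.5 CPM in DMF-like cells. Their log2 ratios, 0.10 and 0.79, were both below that of the pool. The part of such RNA or cells in the myofibroblast value was not tested.

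Mfap4 (chr11:61485431-61488900, plus strand) encodes an extracellular glycoprotein that binds fibrillin, elastin and collagen. Control myofibroblasts had 515 CPM and those of Gli1HHIPCKO 1081 CPM (log2 ratio 1.07, interval 1.02 to 1.12), which ranked 119th from the highest among the 7689 genes. The share of these cells with an Mfap4 UMI was 54.5% and 78.1%, and 46.2% and 71.2% at 2000 UMIs a cell. Within clusters the libraries did not share a direction. Mfap4 was higher in Gli1HHIPCKO in cluster 7 (559.8 and 1422 CPM) and in cluster 4 (175 and 219 CPM, with overlapping intervals), lower in clusters 16 (455 and 285 CPM) and 5 (1684 and 1095 CPM), and overlapping in clusters 3 (828 and 724 CPM) and 15 (1044 and 1128 CPM).

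Several values moved with Mfap4. Alveolar-like cells, the class with the highest Mfap4 level, made up 4.07% of control cells and 13.0% of Gli1HHIPCKO cells. The alveolar fibroblast and adventitial markers were higher in Gli1HHIPCKO myofibroblasts, as given for Fbln5, and adventitial-like cells had the second highest Mfap4 level of the control (5815 CPM). The 11 peribronchial and airway smooth muscle markers summed to 179.6 CPM in control and 537 CPM in Gli1HHIPCKO myofibroblasts (7 of 11 higher). Mfap4 was also higher in Gli1HHIPCKO in cells not known to make it: 593 and 1605 CPM in red cell-like cells, 919 and 2742 CPM in lymphoid-like cells, and 27.3 and 38.8 CPM in AT2-like cells. Their part in the myofibroblast difference was not tested. The 12 DMF markers also summed to 4706 and 8937 CPM in the myofibroblasts and the 12 ALMF markers to 4838 and 3346 CPM, and as clustered here DMF-like cells of each library held more Mfap4 (843 and 1103 CPM) than ALMF-like cells (279 and 240.4 CPM).

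**Figure D2:**
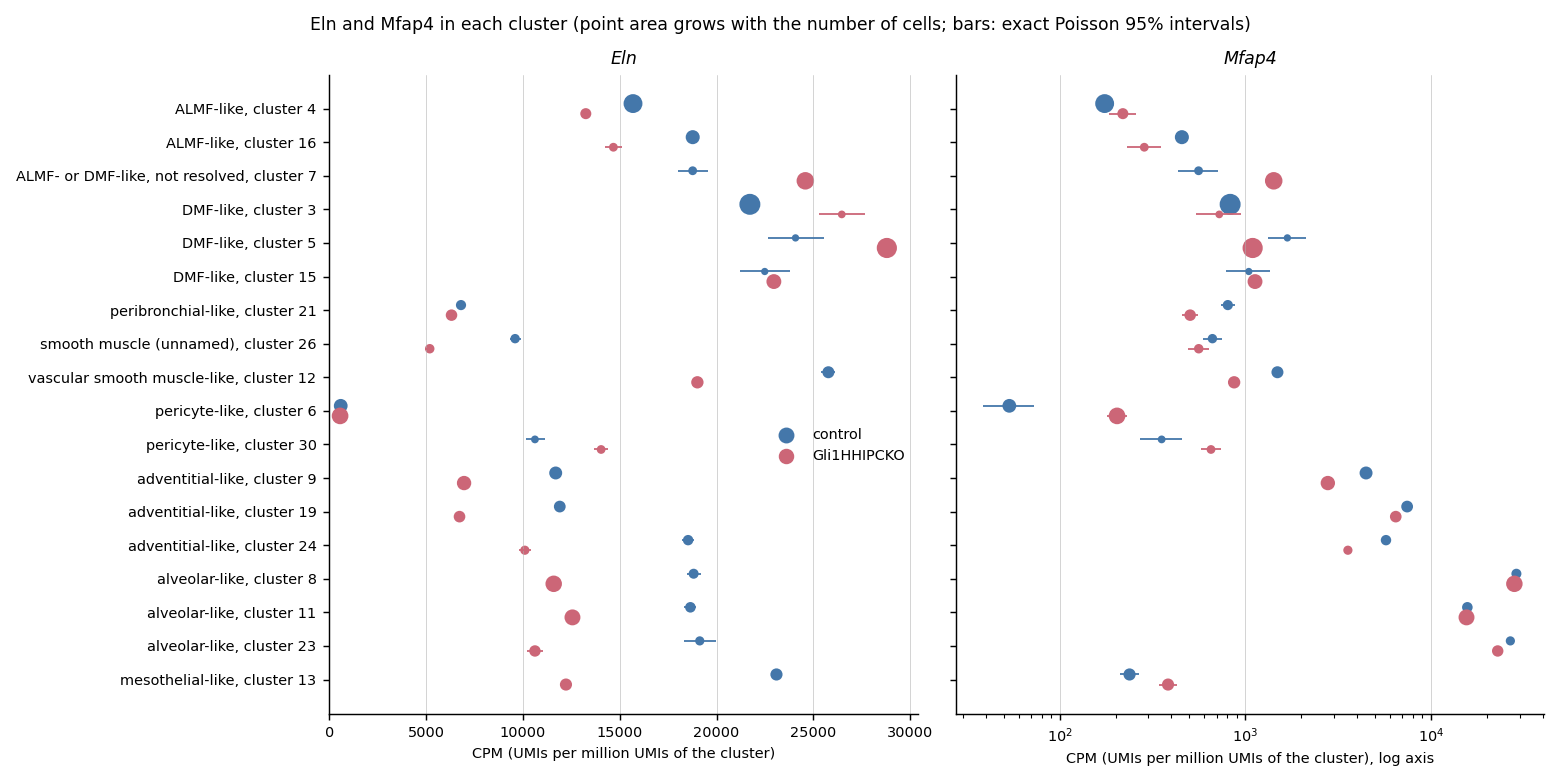
Eln (left, linear axis) and Mfap4 (right, log axis) in CPM in each stromal cluster of the control (blue) and Gli1HHIPCKO (red) library; point area grows with the number of cells, and bars are exact Poisson 95% intervals. Eln was lower in Gli1HHIPCKO in all 3 adventitial-like and all 3 alveolar-like clusters, whereas Mfap4 was higher in Gli1HHIPCKO in some clusters and lower in others.

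Fbn2 (chr18:58008623-58210487, minus strand), the fibrillin used mainly before birth, was lower in Gli1HHIPCKO in each of the 10 classes compared that share no cells. In myofibroblasts it had 288 UMIs or 34.7 CPM in the control against 82 UMIs or 9.29 CPM in Gli1HHIPCKO (log2 ratio -1.90, interval -2.27 to -1.54), the 10th lowest of 7689 genes. The share of myofibroblasts with a Fbn2 UMI was 8.90% and 2.62%, and 5.94% and 1.61% at 2000 UMIs a cell. The log2 ratio was -3.00 (-4.89 to -1.61) in ALMF-like cells, from 150 and 4 UMIs, and -1.77 (-2.22 to -1.34) in DMF-like cells, from 134 and 65 UMIs. Fbn2 was lower in Gli1HHIPCKO in each of the 6 myofibroblast clusters, although 1 library held only 1 to 4 Fbn2 UMIs in all of them and the intervals of the libraries overlapped in all but cluster 4 (33.0 and 2.92 CPM).

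Outside the myofibroblasts, Fbn2 reached the filter only in adventitial-like cells, with 24.1 CPM in the control against 16.1 CPM in Gli1HHIPCKO (log2 ratio -0.58, interval -1.13 to -0.05). It was at 34.1 and 11.2 CPM in peribronchial-like cells, 36.6 and 19.9 CPM in vascular smooth muscle-like cells, 31.9 and 13.4 CPM in pericyte-like cells and 5.67 and 0.748 CPM in alveolar-like cells. AT2-like cells, with 235 UMIs in the control and 80 in Gli1HHIPCKO, were at 15.5 and 4.70 CPM (log2 ratio -1.72, interval -2.10 to -1.35), so the lower value was also measured outside the stromal classes. Blood cells held few Fbn2 UMIs: 7 in control and 1 in Gli1HHIPCKO red cell-like cells, and 7 and 0 in lymphoid-like cells. The part of RNA from other cells in the AT2-like value was not tested. The ratio excluded 0 in 8 of the 10 classes, the vascular smooth muscle-like cells and the unnamed smooth muscle cluster being the others.

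The other fibrillin, Fbn1 (chr2:125300594-125507993, minus strand), measured 605 CPM in control and 868 CPM in Gli1HHIPCKO myofibroblasts (log2 ratio 0.52, interval 0.47 to 0.57), short of 1.5-fold. Emilin1 (chr5:30913402-30921277, plus strand), whose product lies at the interface of elastin and microfibrils, was at 74.4 and 99.9 CPM (log2 ratio 0.42, interval 0.27 to 0.58). Both genes had lower ratios in each subtype than in the pool. Fbn1 was at 0.37 (0.25 to 0.49) in ALMF-like and 0.35 (0.28 to 0.43) in DMF-like cells. Emilin1 was at 0.36 (-0.004 to 0.72) and 0.16 (-0.04 to 0.36), with intervals that included 0. Lox (chr18:52516067-52529867, minus strand) was at 71.3 and 86.0 CPM (log2 ratio 0.27, interval 0.11 to 0.43). Within the pool the Lox ratio was below 0 in both subtypes, with intervals that included 0. It was -0.40 (-0.96 to 0.12) in ALMF-like and -0.13 (-0.32 to 0.06) in DMF-like cells. The part of the pool's make-up, given for Fbln5, in the Fbn1, Emilin1 and Lox values was not tested. The remaining genes were close to level in myofibroblasts: Loxl1 (chr9:58287738-58313186, minus strand) at 299.7 and 289 CPM, Mfap2 (chr4:141010418-141015984, plus strand) at 980.2 and 944 CPM, and Efemp2 (chr19:5473954-5482517, plus strand) at 148 and 131 CPM, with log2 ratios of -0.05 (-0.13 to 0.03), -0.05 (-0.10 to -0.01) and -0.17 (-0.29 to -0.06). Genes on the opposite strand overlap Mfap4 (Mapk7), Efemp2 (Mus81), Eln (Gm30003), Fbn1 (Gm9913) and Lox (AC161119.1). The study's methods give default CellRanger settings and do not spell out whether counting used the strand.

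Taken by subtype, ALMF-like cells had 2 of 9 genes tested lower (Fbn2 and Loxl1) and none higher, where 6.3% of 7933 genes were lower and 6.11% higher. Fbln5, at 11.96 and 12.8 CPM, was below the filter there. DMF-like cells had 1 of 10 lower (Fbn2) and 1 of 10 higher (Fbln5), where 4.77% of 7658 genes were lower and 5.69% higher. In DMF-like cells the alveolar fibroblast markers summed to 228 and 338 CPM (11 of 12 higher) and the adventitial markers to 386 and 497 CPM (6 of 12 higher). The peribronchial markers summed to 261 and 724 CPM (8 of 11 higher) and the AT2 markers to 2720 and 1493 CPM (0 of 9 higher). Their part in the DMF-like values was not tested. Loxl1 was at 252 and 159 CPM in ALMF-like cells (log2 ratio -0.67, interval -0.91 to -0.43), and at 367 and 318 CPM in DMF-like cells. The ALMF-like value of Loxl1 lay between -0.68 and 0.02 over the alternatives, the latter when immediate early genes were held out of the clustering. Of the 2 lower genes in ALMF-like cells, Fbn2 was past 1.5-fold under all 13 alternatives and Loxl1 under 5. With high-scoring doublets left out, or with no filter on cells, Fbn1, Fbln5, Mfap4 and Emilin1 were at least 1.5-fold higher in ALMF-like cells, and with immediate early genes held out Fbln5, Mfap4 and Emilin1 were. The Mfap4 ratio there, -0.21 as reported, lay between -0.44 and 2.17, so its direction was not settled.

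**Figure D3:**
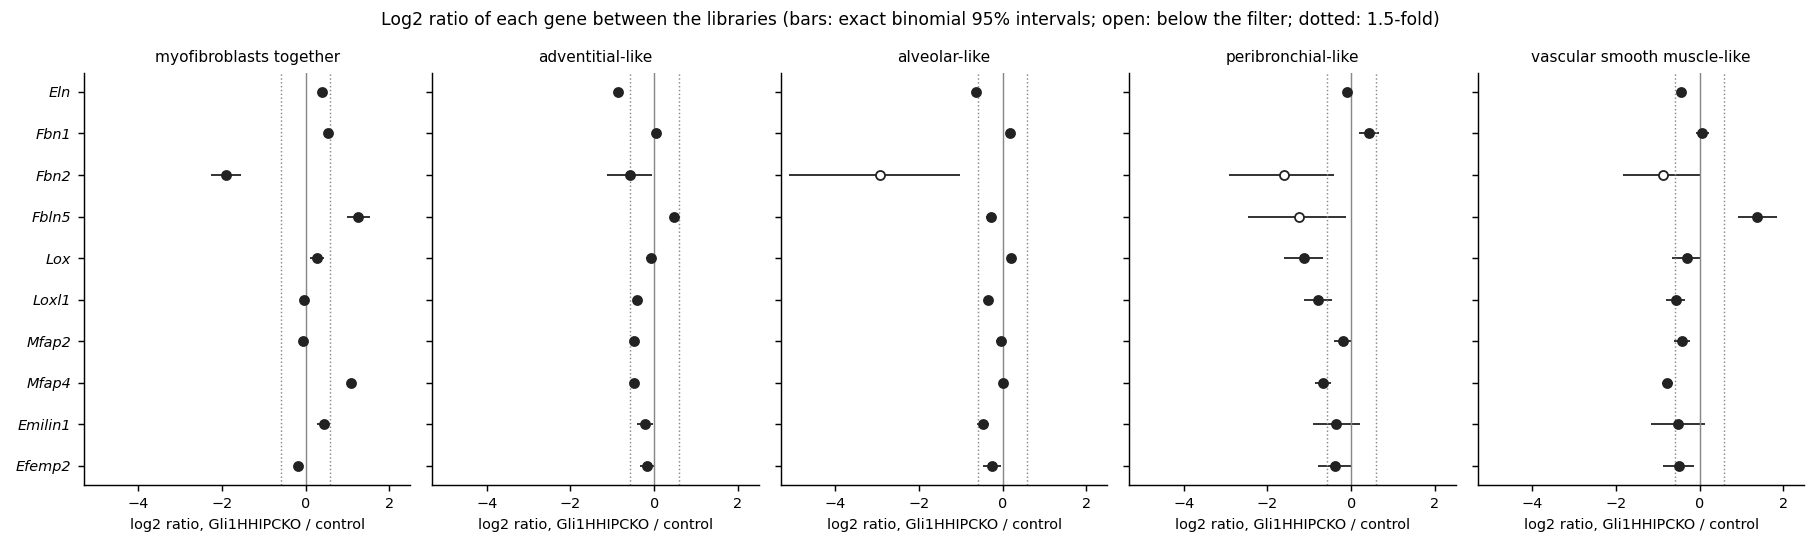
Log2 ratio of each gene, Gli1HHIPCKO over control, in 5 cell classes; points are ratios of class CPM, bars exact binomial 95% intervals, open points genes below the filter, and dotted lines mark 1.5-fold. Eln lay right of 0 at 0.38 in myofibroblasts and left of it at -0.87 in adventitial-like and -0.64 in alveolar-like cells, and Fbn2 lay left of 0 in all 5 classes.

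In adventitial-like cells, fibroblasts of the sheath around airways and vessels, Eln was the only one of the 10 genes at least 1.5-fold lower, and none was as much higher. Fbn2 lay just inside that limit at -0.58. Under 7 of 12 alternatives at least 1 further gene was lower: Fbn2 in 6 of them and Mfap4 in 2, with Emilin1 also lower when each library was clustered on its own. The shares over 7880 genes were 4.54% lower and 6.79% higher. Eln measured 13333 CPM in the control against 7277 CPM in Gli1HHIPCKO (log2 ratio -0.87, interval -0.90 to -0.85), the 92nd lowest of these genes. The median adventitial-like cell held 28 Eln UMIs in the control and 13 in Gli1HHIPCKO. All 3 clusters had the lower value in Gli1HHIPCKO: 11690 and 6958 CPM in cluster 9, 11900 and 6722 CPM in cluster 19, and 18528 and 10096 CPM in cluster 24. In these cells the 12 DMF markers summed to 1379 and 2040 CPM, 11 of 12 higher in Gli1HHIPCKO, and their part was not tested. Mfap4 was at 5815 and 4178 CPM and Mfap2 at 963 and 689.9 CPM, both with a log2 ratio of -0.48, and Loxl1 at 721 and 543 CPM with a ratio of -0.41. Fbln5 went the other way, at 446 and 617 CPM (log2 ratio 0.47, interval 0.37 to 0.57). Fbn1 (1560 and 1602 CPM), Lox (504 and 474 CPM), Emilin1 (157 and 134 CPM) and Efemp2 (192 and 170.1 CPM) lay nearer to level. The median over the 10 genes was -0.31 and over all genes tested 0.00.

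Alveolar-like cells, the septal fibroblasts that store lipid, had Eln as 1 of 9 genes tested lower and none higher, against 4.79% lower and 6.96% higher over 7398 genes. Eln measured 18750 CPM in the control against 12005 CPM in Gli1HHIPCKO (log2 ratio -0.64, interval -0.66 to -0.62). In these cells the 9 AT2 markers summed to 2275 and 1391 CPM (2 of 9 higher) and the 12 adventitial markers to 3049 and 2526 CPM (5 of 12 higher), and their part was not tested. The 3 clusters gave 18813 and 11587 CPM (cluster 8), 18646 and 12555 CPM (cluster 11) and 19129 and 10618 CPM (cluster 23). This lower value did not reach 1.5-fold when high-scoring doublets were left out, at the lower clustering resolution, or when cells were named one by one, where the log2 ratio nearest to 0 was -0.47. Mfap4 was level at 21782 and 21857 CPM, with a log2 ratio of 0.00 (-0.01 to 0.02). Emilin1 was at 342 and 246 CPM (log2 ratio -0.47), Loxl1 at 845 and 657 CPM (-0.36) and Fbln5 at 536 and 441 CPM (-0.28). Lox was at 517 and 598 CPM (0.21) and Fbn1 at 1850 and 2099 CPM (0.18). Mfap2 was at 537 and 525 CPM and Efemp2 at 159 and 133 CPM.

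Eln was lower in other classes too. Mesothelial-like cells measured 23091 CPM in the control against 12220 CPM in Gli1HHIPCKO (log2 ratio -0.92, interval -0.95 to -0.89), and of 8 genes tested there Eln and Mfap2 were lower and Mfap4 higher (238 and 383 CPM), where 7.15% of 6123 genes were lower and 9.19% higher. The AT2 markers summed to 6091 and 1669 CPM in these cells. The 12 alveolar fibroblast markers summed to 821 and 1382 CPM (10 of 12 higher) and the 5 red cell markers to 2471 and 3695 CPM (3 of 5 higher). The part of these markers in the mesothelial-like values was not tested. The unnamed smooth muscle cluster was at 9593 and 5184 CPM (log2 ratio -0.89, interval -0.96 to -0.81). In that cluster the 5 red cell markers summed to 355 and 6708 CPM (5 of 5 higher) and the 8 club cell markers to 1504 and 141 CPM. The 11 peribronchial markers summed to 15539 and 11503 CPM and the 12 adventitial markers to 860 and 536 CPM (3 of 12 higher). The 9 AT2 markers summed to 2084 and 1381 CPM (4 of 9 higher). The part of these markers was not tested. Vascular smooth muscle-like cells were at 25772 and 19007 CPM (log2 ratio -0.44, interval -0.47 to -0.41), and peribronchial-like cells at 6799 and 6309 CPM, -0.11 (-0.17 to -0.05), which was above 0 in 3 of 13 alternatives. Of the 10 classes that share no cells, the interval of the Eln ratio lay below 0 in 7 and above 0 in 2, DMF-like and pericyte-like cells. Whether these ratios differ between classes beyond variation among mice was not tested.

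Peribronchial-like cells, named from markers of peribronchial fibroblasts and airway smooth muscle, had Lox, Loxl1 and Mfap4 lower among 8 genes tested and none higher. Over all 5017 genes tested there, 7.49% were lower and 9.77% higher. Lox had 111 UMIs or 180.1 CPM in 162 control cells against 66 UMIs or 82.0 CPM in 251 Gli1HHIPCKO cells (log2 ratio -1.14, interval -1.60 to -0.68). Loxl1 was at 295 and 170.2 CPM, -0.79 (-1.13 to -0.47), and Mfap4 at 805 and 504 CPM, -0.67 (-0.87 to -0.48). With cells named one by one, 1 of the 3 genes stayed past 1.5-fold. Loxl2, a lysyl oxidase outside the 10 genes, went the other way, at 251 and 449.7 CPM (log2 ratio 0.84, interval 0.56 to 1.12). The class's own 11 markers summed to 15397 CPM in control and 5425 CPM in Gli1HHIPCKO (3 of 11 higher), and the 12 DMF markers to 5425 and 7874 CPM (11 of 12 higher), and the part of this shift in the 3 values was not tested. In the unnamed smooth muscle cluster 4 of the 9 members of the set tested were lower, Eln among them, and none higher, where 6.8% of 2808 genes were lower and 9.94% higher. Mfap2 was at 261 and 171 CPM there (log2 ratio -0.61, interval -1.07 to -0.17). Lox (268 and 176 CPM) and Loxl1 (415 and 221 CPM) were lower too and Loxl2 higher (121 and 189 CPM, log2 ratio 0.63, interval 0.11 to 1.17), beside the marker shifts given for that cluster above. In peribronchial-like cells Fbn1 was at 379.6 and 510.5 CPM (log2 ratio 0.43, interval 0.19 to 0.66). Mfap2 (537 and 471 CPM), Emilin1 (90.8 and 70.8 CPM) and Efemp2 (169 and 129 CPM) had lower values whose intervals included 0, and Fbln5 (20 and 11 UMIs) and Fbn2 (21 and 9 UMIs) were below the filter.

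In vascular smooth muscle-like cells, whose name rests on 3 detected markers, Mfap4 was lower and Fbln5 higher among 9 genes tested, with 6.15% of 5496 genes lower and 7.66% higher. Fbln5, whose product organises elastic laminae of arteries, had 54 UMIs or 70.7 CPM in the control against 156 UMIs or 183 CPM in Gli1HHIPCKO (log2 ratio 1.37, interval 0.92 to 1.85), the 27th highest in the class. The share of cells with a Fbln5 UMI was 15.035% and 30.4%, and 12.8% and 29.0% at 2000 UMIs a cell, which left out 107 and 130 shallower cells. Mfap4 was at 1489 and 870.3 CPM (log2 ratio -0.77, interval -0.91 to -0.64). Over the alternatives that gave this class, the log2 ratio lay between 0.73 and 1.63 for Fbln5 and between -1.11 and -0.20 for Mfap4. In these cells pericyte markers summed to 2329 and 3244 CPM, peribronchial and airway smooth muscle markers to 1636 and 1070 CPM and AT2 markers to 2905 and 1662 CPM, while alveolar fibroblast markers summed to 1199 and 1248 CPM and adventitial markers to 1081 and 1006 CPM. Their part in the Fbln5 and Mfap4 values was not tested. Loxl1 (476 and 320.2 CPM), Mfap2 (628 and 467 CPM), Emilin1 (65.4 and 45.7 CPM) and Efemp2 (195 and 137 CPM) had log2 ratios between -0.57 and -0.43, Lox was at 204 and 164 CPM, and Fbn1 was level at 836 and 872 CPM.

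Pericyte-like cells, the mural cells of capillaries, had higher values of Eln, Loxl1 and Mfap4 in Gli1HHIPCKO, 3 of 7 genes tested, and none lower, where 7.01% of 6423 genes were higher and 3.43% lower, with log2 ratios of 0.59 for Eln and 0.78 for Loxl1 (42.5 and 73.2 CPM). Mfap4 measured 109 CPM in the control against 308 CPM in Gli1HHIPCKO (log2 ratio 1.49, interval 1.19 to 1.81), and it was higher in cluster 6 (53.5 and 204 CPM) as in cluster 30 (354 and 653 CPM). Both levels lay below those of red cell-like cells (593 and 1605 CPM) and lymphoid-like cells (919 and 2742 CPM), which are not known to make Mfap4 and in which it was also higher in Gli1HHIPCKO, and the part of such RNA in the pericyte-like value was not tested. Eln, as given above, was close between the libraries in cluster 6 and higher in Gli1HHIPCKO in cluster 30. Most Loxl1 UMIs came from cluster 30, 34 of 40 in the control and 111 of 126 in Gli1HHIPCKO, and the intervals of the libraries overlapped both there (194 and 276.7 CPM) and in cluster 6 (7.83 and 11.4 CPM). Efemp2 went the other way, at 222 and 156 CPM (log2 ratio -0.51, interval -0.78 to -0.25). In this class the 12 DMF markers summed to 851 and 1611 CPM, all 12 higher in Gli1HHIPCKO. The peribronchial and airway smooth muscle markers summed to 139 and 213 CPM (10 of 11 higher). Vascular smooth muscle markers summed to 1358 and 986 CPM (6 of 10 higher) and AT2 markers to 3755 and 2330 CPM (3 of 9 higher). The part of these markers was not tested.

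Between genes, the classes with the highest level differed. Alveolar-like and adventitial-like cells were the top 2 stromal classes for Fbn1, Lox, Loxl1, Mfap4 and Emilin1 in both libraries. Mfap2 was highest in mesothelial-like cells, at 3013 and 1982 CPM, and its log2 ratio there was -0.60 (-0.69 to -0.52). Fbln5 was highest in alveolar-like cells of the control (536 CPM) and adventitial-like cells of Gli1HHIPCKO (617 CPM), with mesothelial-like cells at 449 and 488 CPM. Efemp2 varied least: its levels lay between 97.4 and 222 CPM in the 9 stromal classes of the control, most neighbours in that order overlapped, and AT2-like cells still held 36.5 CPM in the control.

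Per cell, adventitial-like and alveolar-like cells carried a UMI of a median of 7 of the 10 genes in both libraries, myofibroblasts of 5, and AT2-like cells of 1. Thinned to 2000 UMIs, without shallower cells (111 control and 334 Gli1HHIPCKO alveolar-like cells), the mean number was 6.31 in control and 6.04 in Gli1HHIPCKO alveolar-like cells, 3.96 and 4.36 in myofibroblasts, and 0.34 in AT2-like cells of either library.

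The libraries also differed in which classes held each gene's UMIs. Alveolar-like cells held 13.5% of the UMIs of the 10 genes in the control and 29.9% in Gli1HHIPCKO, and adventitial-like cells 15.6% and 7.08%. Myofibroblasts held 46.0% of Eln UMIs in the control and 51.5% in Gli1HHIPCKO. Alveolar-like cells held 44.5% and 64.7% of Mfap4 UMIs, 17.5% and 43.7% of Lox UMIs, and 14.0% and 33.2% of Fbn1 UMIs. These shares follow the sort and the mixing of cells as well as the tissue. Summed over all kept cells, Mfap4 measured 1602 CPM in the control against 3488 CPM in Gli1HHIPCKO, while its level in alveolar-like cells differed by 0.00 on the log2 scale.

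**Figure D4:**
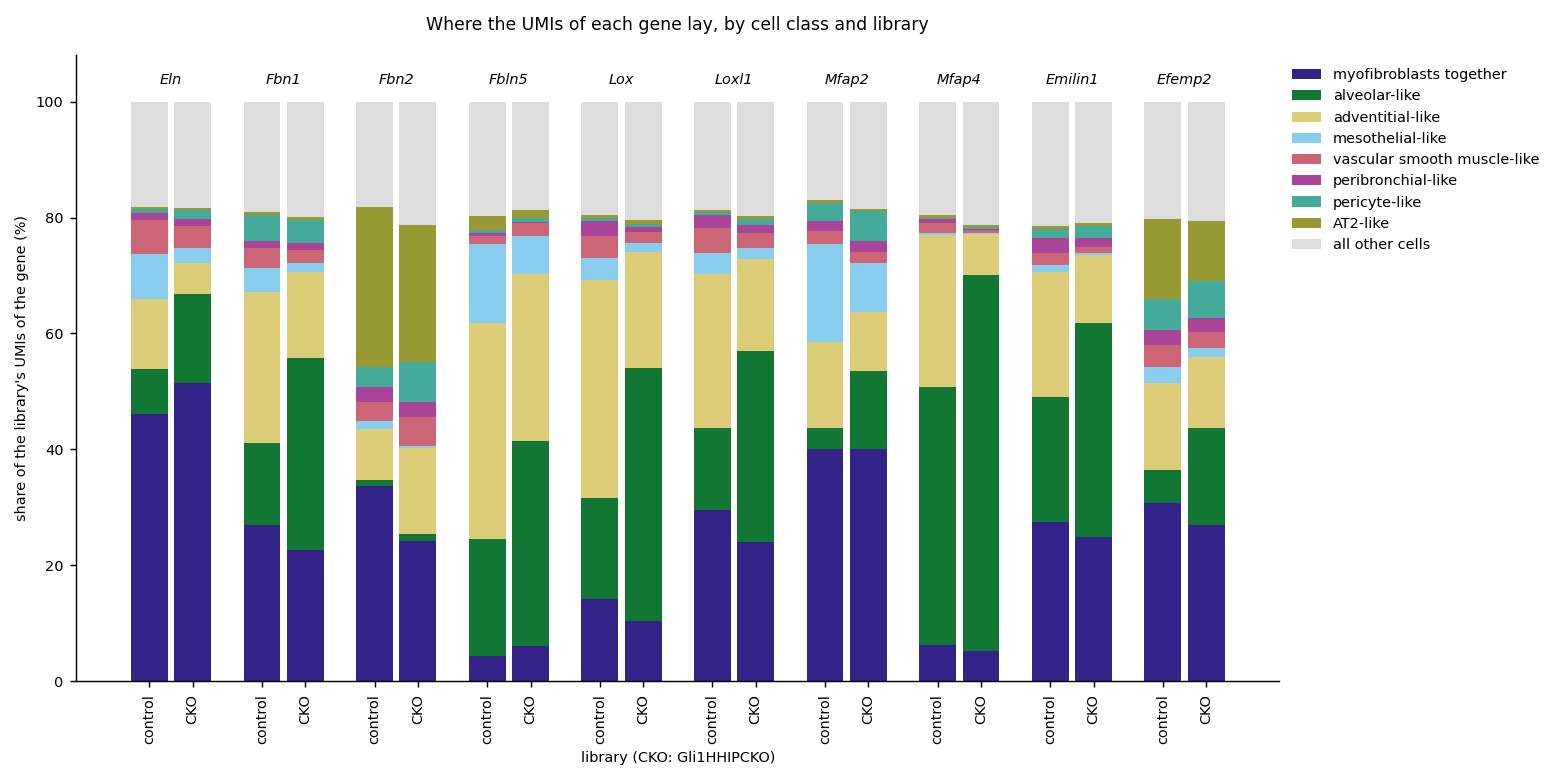
Share (%) of each gene's UMIs in a library held by each cell class, for control and Gli1HHIPCKO (CKO); grey is every other cell, the unnamed ones included. Alveolar-like cells (green) held 44.5% of Mfap4 UMIs in the control and 64.7% in Gli1HHIPCKO.

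The genes whose levels were most like those of Eln over 28 combinations of class and library (15 classes, Pearson's r of log2(CPM + 1), among 8291 genes) were Adamts2 (r = 0.95), Mgp (0.94), Loxl1 (0.94), Rcn3 (0.93) and Bgn (0.93). Of the 10 genes, Mfap2 (0.91) and Fbn1 (0.89) came next and Fbln5 (0.53) was the least like Eln among those compared. Those most like Mfap4 were Fn1 (0.96), Astn2 (0.94), Cyp27a1 (0.92), Macf1 (0.91) and Col13a1 (0.91), and among the 10 genes Lox (0.86). Fbn2, below 50 CPM in every combination, was not among the genes set against Eln and Mfap4. The combinations share libraries and depth, so r is a description.

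Of 30 other genes of the elastic fibre (latent TGF-beta binding proteins, further fibulins and lysyl oxidases, ADAMTS-like proteins, matrix scaffold and elastases), 19 passed the filter in myofibroblasts, of which 5 were at least 1.5-fold higher and 3 lower, where 4.75% and 3.97% of all genes were. Tgm2, a cross-linking transglutaminase, and Tnxb, tenascin X, were past 1.5-fold in ALMF-like and DMF-like cells alike. Tgm2 measured 23.6 CPM in control and 73.3 CPM in Gli1HHIPCKO myofibroblasts, and Tnxb 397 and 177 CPM. The others were Fn1, Hspg2, Ltbp1 and Loxl2 among the higher and Adamts10 and Fbln1 among the lower. The numbers lower and higher, with the shares over all genes of the class, were 3 and 2 of 19 in ALMF-like cells (6.3% and 6.11%), 3 and 6 of 20 in DMF-like cells (4.77% and 5.69%) and 2 and 2 of 16 in peribronchial-like cells (7.49% and 9.77%). They were 2 and 2 of 19 in vascular smooth muscle-like cells (6.15% and 7.66%), 1 and 1 of 19 in alveolar-like cells (4.79% and 6.96%) and 1 and 0 of 24 in adventitial-like cells (4.54% and 6.79%), the last 2 classes being near or below those shares. The unnamed smooth muscle cluster had 4 lower and 1 higher of 16 (6.8% and 9.94%). Pericyte-like cells had 2 and 3 of 17 (3.43% and 7.01%) and mesothelial-like cells 2 and 0 of 22 (7.15% and 9.19%).

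**Figure D5:**
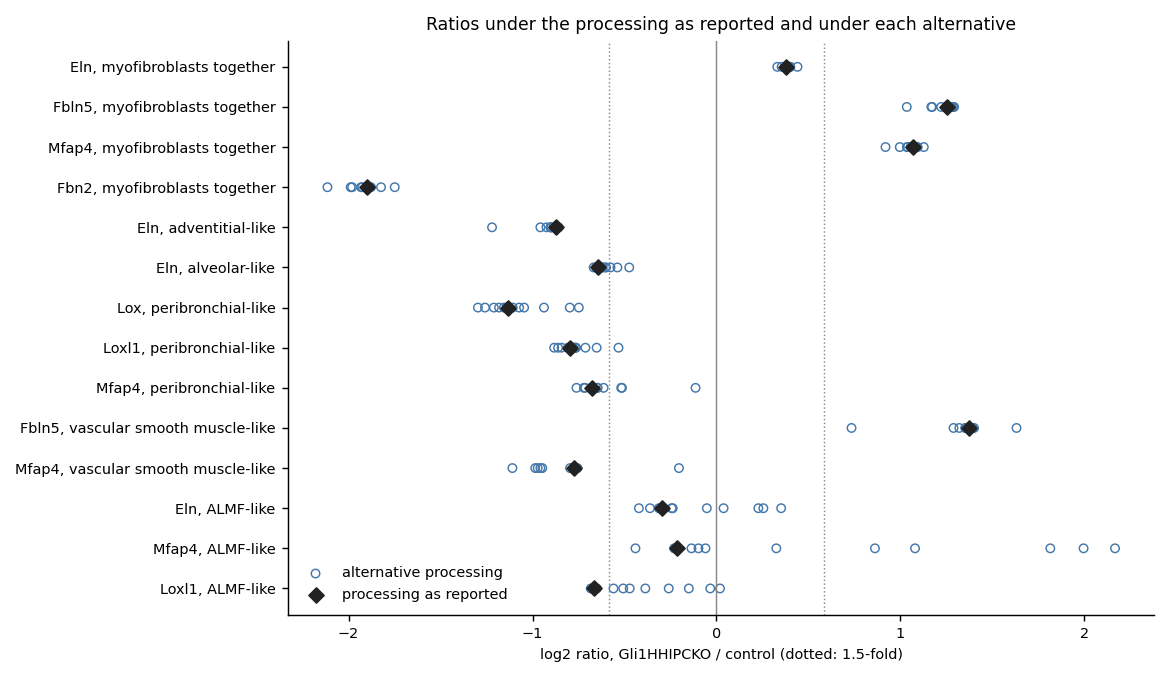
Log2 ratio, Gli1HHIPCKO over control, for 14 gene and class pairs under the processing as reported (black diamonds) and each alternative (open circles); dotted lines mark 1.5-fold. The 4 myofibroblast values and Eln in adventitial-like cells kept their sign throughout, whereas Eln, Mfap4 and Loxl1 in ALMF-like cells crossed 0.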

How the data were processed

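The deposited count matrices hold UMI counts per gene and cell, which the authors made with CellRanger on mm10 (version 6.1.0 in the matrix header and methods, 3.1.0 in the submitters' processing notes; a 5′ kit in the design text and methods, a 3′ kit in the sample labels). No column held a value of another sample. The study's own filter was applied: 200 to 6000 genes a cell, and no more than 10% of UMIs from mitochondrial genes. Log-normalised counts (scale 10000) of 2000 variable genes gave 30 principal components and Leiden clusters (Python 3.11.15, scikit-learn 1.9.0 and leidenalg 0.10.2, 20 neighbours, resolution 1), both libraries together, with the elastic fibre genes, Hhip and other genes of the study held out. Names came from marker lists by a rule set and revised after the clusters were seen but before the values of the 10 genes were read in them; most stromal lists were drawn from the study's own table on these libraries. No doublets were removed; in an alternative, cells with the largest share of simulated doublets (sums of 2 random cells of the library) among their nearest neighbours were left out, 953 in control and 1174 in Gli1HHIPCKO. Thinned values leave out cells under 2000 UMIs. The 10 genes and all lists were chosen with earlier results of these data known.

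UMIs were summed per class and library. A gene entered a comparison with a UMI in 5% of the cells and 50 UMIs over both libraries, and counted as different at 1.5-fold (0.585 on the log2 scale). Intervals are exact, 95%, and cover counting error only. Named genes were the 10 members, Hhip, other elastic fibre genes past 1.5-fold in both myofibroblast classes, and the 5 genes most like Eln and Mfap4; the genes of the other list past 1.5-fold in the myofibroblasts together were named after their values were seen. Alternatives covered gene and cell filters, scaling, depth, doublets and clustering. Positions are from GENCODE vM21.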

Additional observations from a re-analysis of the deposited data

Results flagged for a closer look

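For 5 of the 10 genes, the ratio between the libraries was at least 1.5-fold in a class and lay, with its whole counting interval, on the other side of 0 in another class. Of the 8725 genes tested in at least 2 classes, 11.0% did so. The rule is met more readily by genes with many UMIs, whose intervals are narrow. None of these differences between classes was tested, since each condition is 1 mouse, and ALMF-like and DMF-like cells are also part of the pooled myofibroblasts.

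Eln had log2 ratios of -0.92 in mesothelial-like cells, -0.89 in the unnamed smooth muscle cluster, -0.87 in adventitial-like, -0.64 in alveolar-like, -0.44 in vascular smooth muscle-like, -0.30 in ALMF-like and -0.11 in peribronchial-like cells, against 0.28 in DMF-like cells, 0.38 in the pooled myofibroblasts and 0.59 in pericyte-like cells. In pericyte-like cells, the small cluster 30 held 1859 of 2309 control and 5630 of 6362 Gli1HHIPCKO Eln UMIs. Eln was close between the libraries in cluster 6 (588 and 554 CPM). Lox was at -1.14 in peribronchial-like cells and -0.61 in the unnamed smooth muscle cluster. Against these, Lox was at 0.27 in the pooled myofibroblasts and 0.21 in alveolar-like cells. Neither myofibroblast subtype shared the pooled direction for Lox: their ratios were negative (ALMF-like -0.40, DMF-like -0.13) and within counting error. Loxl1 was at 0.78 in pericyte-like cells (40 and 126 UMIs, with overlapping intervals in each of their clusters), against -0.91 in the unnamed smooth muscle cluster, -0.79 in peribronchial-like, -0.67 in ALMF-like, -0.57 in vascular smooth muscle-like, -0.41 in adventitial-like, -0.36 in alveolar-like and -0.20 in DMF-like cells. Mfap4 was at 1.49 in pericyte-like cells, 1.07 in the pooled myofibroblasts, 0.69 in mesothelial-like, 0.51 in AT2-like and 0.39 in DMF-like cells, against -0.21 in ALMF-like, -0.67 in peribronchial-like, -0.48 in adventitial-like and -0.77 in vascular smooth muscle-like cells. Fbln5 was at 0.79 in DMF-like cells, 1.25 in the pooled myofibroblasts and 1.37 in vascular smooth muscle-like cells, against -0.28 in alveolar-like cells.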

How the results depend on the processing

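Of 174 counts of genes at least 1.5-fold higher or lower, recomputed under the alternatives, 138 stayed within 1.5 times the reported count and 36 did not; of 870 single-gene ratios, 727 stayed within their counting interval and 49 took the other sign, 24 of them in ALMF-like cells. Of the ratios that were past 1.5-fold as reported, 1 took the other sign. The classes recomputed were ALMF-like, DMF-like, pooled myofibroblasts, peribronchial-like, alveolar-like, adventitial-like and vascular smooth muscle-like cells. Values in pericyte-like, mesothelial-like and AT2-like cells and in the unnamed smooth muscle cluster were not recomputed. In the pooled myofibroblasts, over 14 alternatives, the log2 ratio lay between 0.33 and 0.44 for Eln, 1.03 and 1.29 for Fbln5, 0.92 and 1.13 for Mfap4 and -2.11 and -1.75 for Fbn2. Eln lay between -1.22 and -0.86 in adventitial-like cells (12 alternatives) and between -0.67 and -0.47 in alveolar-like cells (13). In ALMF-like cells, Eln lay between -0.42 and 0.35, Mfap4 between -0.44 and 2.17, and Loxl1 reversed to 0.0193 with immediate early genes held out of clustering.

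The counts that moved were these. With no filter on genes, 5 genes were lower in peribronchial-like cells, 2 in alveolar-like and 2 in vascular smooth muscle-like cells. With no filter on cells, 1 was lower and 4 higher in ALMF-like cells, 2 lower in adventitial-like and 3 lower in vascular smooth muscle-like cells. With ratios centred on the median gene, 2 were lower in adventitial-like and 2 in vascular smooth muscle-like ones. With high-scoring doublets left out, 1 was lower and 4 higher in ALMF-like cells, 0 lower in alveolar-like and 2 lower in adventitial-like cells. With cells thinned to 2000 UMIs, 1 was lower in ALMF-like, 0 in DMF-like, 0 in pooled myofibroblasts and 2 in vascular smooth muscle-like cells. At resolution 0.5, 1 was lower in ALMF-like, 0 in DMF-like and 0 in alveolar-like cells. With each library clustered on its own, 1 was lower and 1 higher in ALMF-like and 4 lower in adventitial-like cells. With cells named one by one, 1 was lower and 1 higher in ALMF-like, 1 lower in peribronchial-like, 0 in alveolar-like, 2 in adventitial-like and 0 in vascular smooth muscle-like cells. With immediate early genes held out, 1 was lower and 3 higher in ALMF-like, 2 lower in adventitial-like and 3 lower in vascular smooth muscle-like ones. With the elastic fibre genes used in clustering, 2 were lower in adventitial-like cells and 3 in vascular smooth muscle-like ones. Leaving out the clusters led by immediate early genes gave 1 lower in ALMF-like cells. The DMF-like and pooled calls were lost because Fbn2 fell below the filter on genes; its DMF-like log2 ratio lay between -2.11 and -1.67 over 13 alternatives, against -1.77 as reported. Beyond the filter on genes, the cause was not tested.

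Vascular smooth muscle-like cells could not be named in both libraries with doublets left out, at resolution 0.5, or with each library clustered on its own, so those settings gave no value. Leaving out or adding whole clusters was chosen after seeing the data. No paired analysis was possible because each condition is 1 library, and no library could be left out. Fbn2, Fbln5, Lox and Emilin1 rest on few UMIs in the smaller classes, and their differences there were often not detectable at this depth.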
